A study of Bos taurus with 12 samples.

Results

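The mRNAs described here were high in bovine intramuscular preadipocytes before adipogenic induction (0 d) and low in every library taken 3, 6 and 9 d after it. They were chosen by their measured FPKM (fragments scaled to transcript length and library size). The lowest 0 d value had to be at least 3 FPKM and at least 4 times the highest value of the 9 induced libraries. The rule took 28 of 33714 mRNA rows, or 0.324% of the 8634 rows that reached 3 FPKM in every 0 d library. Because these values selected the members, their levels at 0 d and their distance from 0 d are descriptions without a test. The rule did not compare 3, 6 and 9 d with each other, and their differences were tested. Its cap used the highest induced value, however, so a member could not rise far again, and those tests carry that limit.

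The study followed the differentiation of preadipocytes that collagenase digestion and adherence gave from longissimus dorsi of newborn Qinchuan calves. The 0 d cells were grown in serum-containing medium until nearly confluent and were not induced. The 3, 6 and 9 d cells were induced with dexamethasone, IBMX and insulin and later kept in insulin alone, so time in culture and induction cannot be told apart. Each day had 3 libraries, described as biological replicates, but the number of animals is not stated, and p-values measure the spread between these cultures. The deposited FPKM do not carry the number of reads behind each value, and the circular RNA counts of the same libraries summed to between 5358 and 10729 per library.

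During adipogenesis, preadipocytes stop behaving as fibroblast-like progenitors, change the matrix around them and begin to store lipid. BMP ligands promote the commitment of mesenchymal progenitors to fat, and secreted antagonists such as chordin limit them, while laminins and integrins anchor cells to the matrix. Cultures made from muscle by adherence can also hold myogenic cells, which express creatine kinase and the myogenic transcription factors.

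The labelled cell type was compared with marker genes. PDGFRA, the receptor that marks fibro-adipogenic progenitors, was measured at 168, 148 and 163 FPKM at 0 d, 925, 963 and 900.4 at 3 d, 164, 160.4 and 161 at 6 d and then 201, 198 and 209.8 at 9 d. FABP4, a fatty acid carrier of adipocytes, was at 3.36, 3.02 and 3.52 FPKM at 0 d, 94.7, 86.2 and 92.3 FPKM at 3 d and then 7.59, 8.84 and 10.8 FPKM at 9 d. ADIPOQ, the adipocyte hormone adiponectin, was below 1 FPKM in all libraries but 1 at 6 d. PDGFRA and FABP4 were thus highest at 3 d, but these single genes do not stand for their lists. Of 19 tested mesenchymal progenitor markers, 5 were higher and 9 lower for 3 d vs. 0 d in the limma fit (Benjamini-Hochberg adjusted p under 0.05 and log2 change over 1 or under -1), with a median log2 change of -0.88. The sum over all 20 genes of that list was 24625, 24519 and 26681 FPKM at 0 d, 11201, 12130.0 and 11660.3 at 3 d and then 25411, 24537 and 25879.7 at 9 d. Most of that sum was VIM, vimentin, an abundant cytoskeletal mRNA with a mean of 24254 FPKM at 0 d, so it does not describe the list as a whole. Of 27 tested adipocyte markers, 15 were higher and 3 lower for 3 d vs. 0 d, with a median log2 change of 1.14, and 8 were higher and 2 lower for 9 d vs. 0 d. The sum over the 29 adipocyte genes found was 3012, 3059 and 3317 FPKM at 0 d, 6702, 7468 and 7214 at 3 d and then 4143, 4299 and 4196 at 9 d, and FASN, fatty acid synthase, was its most abundant gene at 0 d with 1527 FPKM.

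Skeletal muscle markers were also present at 0 d and lower in the induced libraries. Of 34 found genes of a skeletal muscle marker list, 30 had a mean of at least 1 FPKM at 0 d and 0 were at 0 in every 0 d library. The summed level of the list, CKM included, was 3766, 4355 and 4191 FPKM at 0 d, 1444, 1628 and 1606 at 3 d, 1364, 1282 and 1386 at 6 d and then 1341, 1257 and 1426 at 9 d. Every 0 d sum lay above every later sum. The most abundant gene of the list at 0 d was ACTC1, cardiac actin, with a mean of 911 FPKM, followed by MYMK, the myoblast fusion protein myomaker, with 829.8 FPKM. MYOD1 and MYOG, myogenic transcription factors, were picked after their values were seen. MYOD1 was at 239.8, 260.2 and 303 FPKM before induction, against 56.6, 43.2 and 63.8 FPKM at 9 d. MYOG was at 10.3, 10.5 and 11.2 FPKM before induction, against 2.42, 2.11 and 2.88 FPKM at 9 d. The nerve and Schwann cell list was also highest at 0 d. Its summed level was 380, 379 and 389 FPKM at 0 d and 107, 126 and 121 at 3 d. It was 234, 244 and 253 FPKM at 6 d and then 234, 215 and 242 at 9 d. UCHL1, its most abundant gene at 0 d, had a mean of 247 FPKM. Of its 10 tested genes, 5 were lower and 1 higher for 3 d vs. 0 d in the limma fit. For 6 d vs. 0 d, 4 were lower and 2 higher, and for 9 d vs. 0 d, 2 were lower and 1 higher. The tendon and cartilage sum was likewise highest before induction, in every library, with 1997, 1984 and 2087 FPKM. Day 3 gave 644, 676 and 637 FPKM, day 6 gave 836, 748 and 825, and day 9 gave 1829, 1734 and 1953. Of its 20 tested genes, 7 were lower and 4 higher for 3 d vs. 0 d, but 1 lower and 3 higher for 9 d vs. 0 d. The mean endothelial sum was also highest before induction, with 145 FPKM, but its day 9 libraries overlapped. In these bulk libraries, fewer cells of a type and less RNA per cell cannot be told apart. The part of muscle, nerve, tendon, cartilage or endothelial cells in the members' pattern was not tested.

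**Figure D1:**
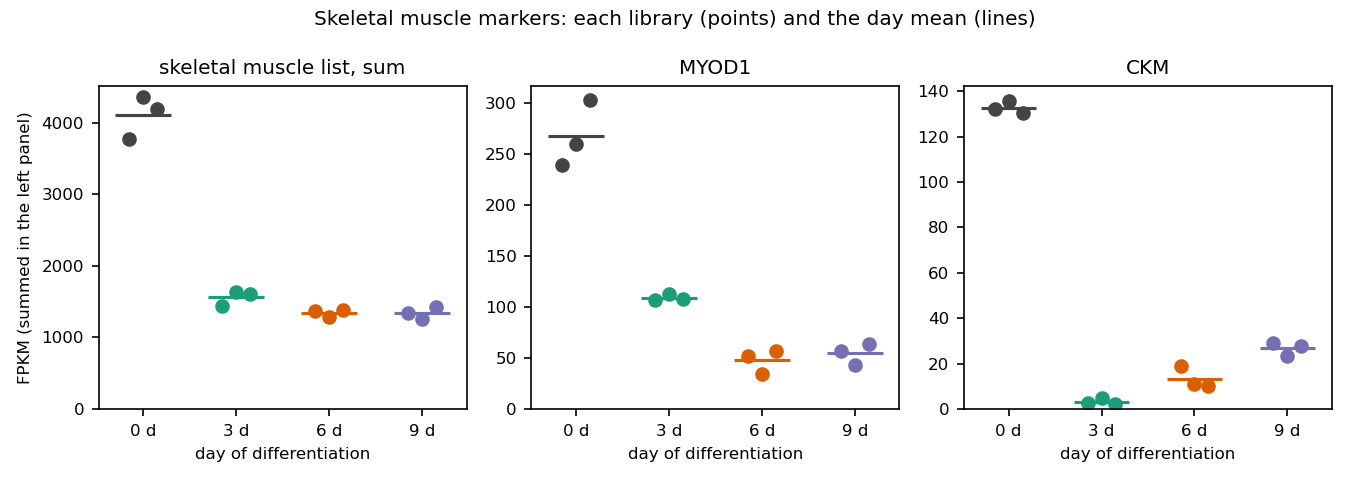
Summed FPKM of the skeletal muscle marker list (left) and FPKM of MYOD1 (middle) and the member CKM (right) against day of differentiation, with each library as a point and the mean of the 3 libraries as a line. All 3 quantities lie higher in the 0 d libraries than in any later library, and CKM is higher at 9 d than at 3 d.

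At 0 d the members' means ran from 3.41 to 316 FPKM with a median of 14.6 FPKM. Means of at least 10 FPKM were reached by 16 members and means of at least 100 FPKM by 3. As a share of the 0 d mean, the members stood at a median of 6.65% at 3 d, 11.4% at 6 d and 12.996% at 9 d. In a limma fit, 28, 28 and 27 members were called lower at 3, 6 and 9 d than at 0 d, against 15.2%, 7.97% and 7.47% of all tested mRNAs, and 0 were called higher, against 8.06%, 3.39% and 3.41%. The rule fixed these directions, so nothing is read from those counts. The member not called for 9 d was IGFALS. The rule caps the share of the 0 d mean, and the highest values were 22.3% at 3 d, 19.6% at 6 d and 21.8% at 9 d. Day 3 was the lowest of the induced days for 18 members, day 6 for 5 and day 9 for 5. That count was not made over all tested mRNAs, so it describes the members only. For 6 d vs. 3 d, 20 of the 28 members had a log2 change above 0, against 44.7% of all tested mRNAs. For 9 d vs. 3 d, 21 did, against 42.6%.

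**Figure D2:**
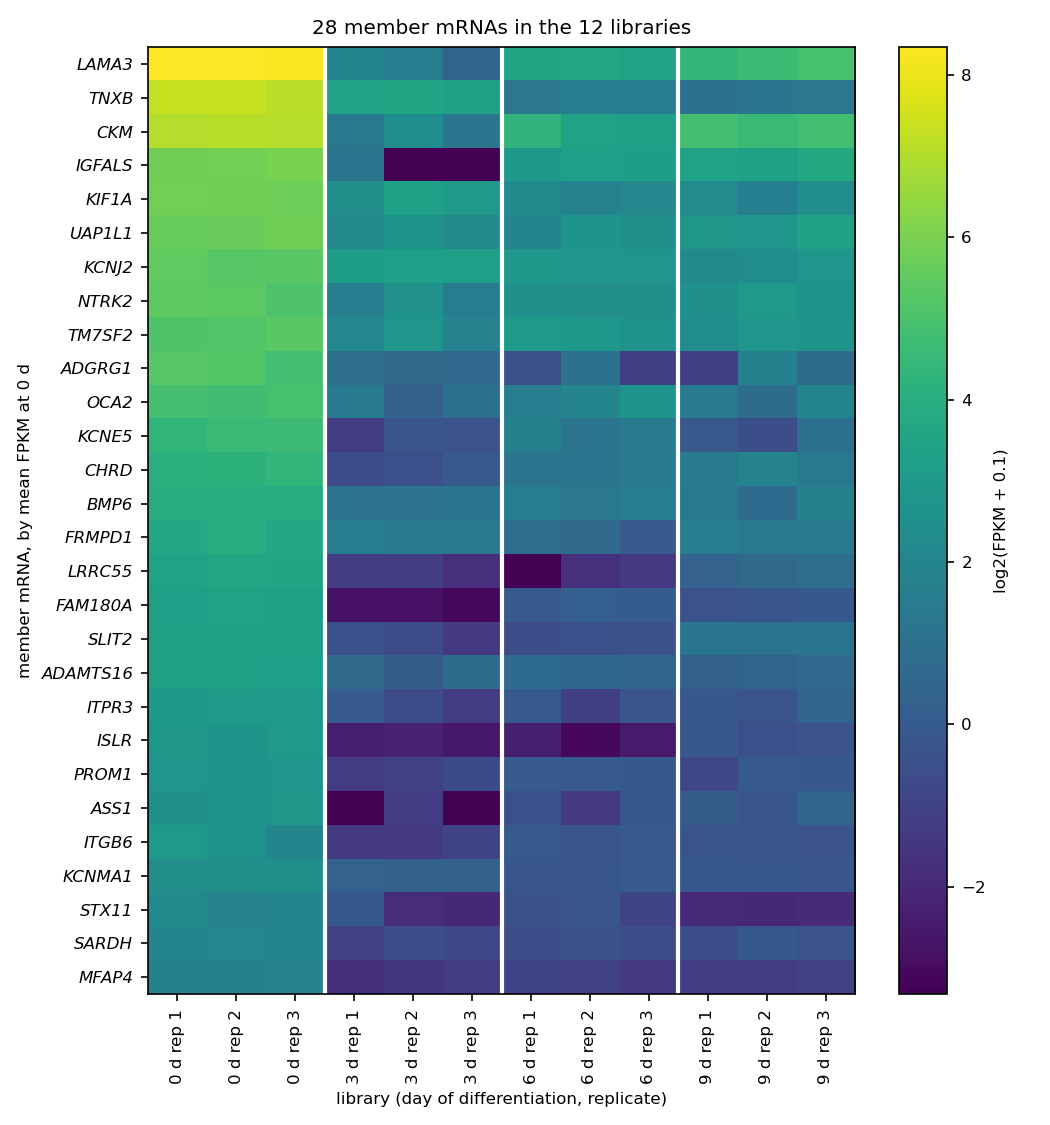
Heat map of log2(FPKM + 0.1) for the 28 members (rows, ordered by mean FPKM at 0 d) in the 12 libraries (columns, by day and replicate). The 0 d columns are the brightest in every row, and in the rows of LAMA3, CKM and CHRD the 3 d columns are darker than those of 6 d and 9 d.

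Between induced days, 14 of the 28 members were called in at least 1 comparison, against 26.4% of the 15401 tested mRNAs. A call needed a limma adjusted p-value (Benjamini-Hochberg, BH) under 0.05 and a log2 change over 1 or under -1 on the log2(FPKM + 0.1) scale, which understates changes of low mRNAs. All 28 members had a mean of at least 0.1 FPKM over the 9 induced libraries as well, and 17 had a mean of at least 1 FPKM. For 6 d vs. 3 d, 9 members were higher, against 9.85% of all tested mRNAs, and 1 was lower, against 9.23%. For 9 d vs. 3 d, 9 members were higher, against 10.2%, and 1 was lower, against 10.3%. For 9 d vs. 6 d, 5 members were higher, against 2.55%, and 2 were lower, against 1.89%. The median log2 change of the members was 0.37, 0.61 and 0.15 in these comparisons, beside -0.09, -0.13 and -0.04 over all tested mRNAs. With libraries rescaled to a common median ratio, the median over all tested mRNAs became -0.01 for 6 d vs. 3 d and for 9 d vs. 3 d, and 10, 10 and 6 members were higher. With a pseudocount of 1 FPKM, 14 of the 27 calls on members ended. They were those of FAM180A, CHRD, ITGB6, OCA2 and ASS1 for 6 d vs. 3 d, of FAM180A, ISLR, LRRC55 and ASS1 for 9 d vs. 3 d, and of ISLR, SLIT2, KCNE5, CKM and STX11 for 9 d vs. 6 d. These comparisons share libraries and are not independent of each other. The rule's cap on the highest induced value also limited rises among these days, so the distance from the shares over all tested mRNAs is a description.

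**Figure D3:**
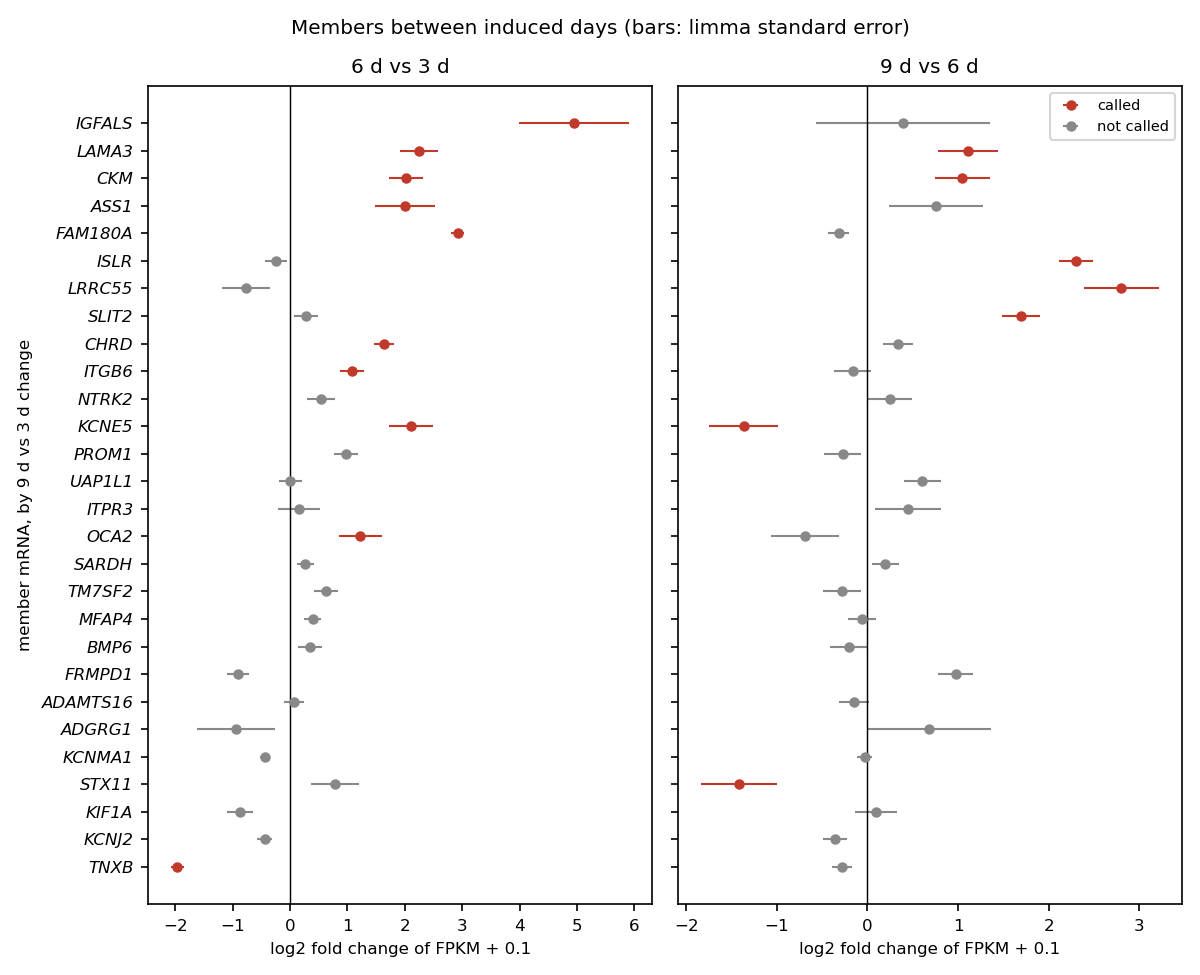
Log2 change of FPKM + 0.1 of each member for 6 d vs. 3 d (left) and 9 d vs. 6 d (right), with bars for the limma standard error and red points for called members. Most called members lie to the right of 0 in both panels, TNXB is the called member to the left for 6 d vs. 3 d, and KCNE5 and STX11 are those to the left for 9 d vs. 6 d.

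Among the matrix and adhesion members, LAMA3, a chain of epithelial-type basement membrane laminin, was the most abundant at 0 d. It was measured at 322, 325 and 300.1 FPKM at 0 d, 3.82, 2.94 and 1.2 at 3 d, 12.03, 12.2 and 10.9 at 6 d and then 20.97, 25.3 and 30.6 at 9 d. The days did not overlap, and 9 d reached 8.11% of the 0 d mean. LAMA3 rose for 6 d vs. 3 d (log2 change 2.24, SE 0.33, adjusted p = 2.8e-04) and for 9 d vs. 3 d (log2 change 3.35, SE 0.33, adjusted p = 1.6e-05) in the limma fit. Its call for 9 d vs. 6 d (log2 change 1.11, SE 0.33, adjusted p = 0.04) ended when any 1 of the 9 libraries of 0, 6 and 9 d was left out, with log2 changes of 0.97 to 1.24, and over all settings its limma adjusted p (BH) ran from 7.8e-04 to 0.12. LAMB3, a laminin beta chain that assembles with LAMA3, was picked for mention after its values were seen. LAMB3 was at 0.82, 0.95 and 0.86 FPKM at 0 d and then 0.66, 0.6 and 0.76 at 9 d. On the per-length FPKM scale LAMB3 was thus far below LAMA3 at 0 d.

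TNXB, the matrix glycoprotein tenascin-X that binds collagen fibrils, went the other way after induction. It was at 159, 164 and 139.7 FPKM at 0 d, 10.7, 11.5 and 10.2 at 3 d, 2.35, 2.87 and 2.88 at 6 d and then 1.93, 2.3 and 2.4 at 9 d. The 6 d and 9 d libraries overlapped each other and lay below every 3 d library. TNXB had the largest ratio of the lowest 0 d to the highest induced value, 12.2, and ended at 1.43% of its 0 d mean. TNXB was the 1 member called lower for 6 d vs. 3 d (log2 change -1.96, SE 0.11, adjusted p = 3.3e-07) and for 9 d vs. 3 d (log2 change -2.24, SE 0.11, adjusted p = 1.1e-07) in the limma fit.

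MFAP4, a protein of elastic microfibrils, was the lowest member at 0 d with 3.43, 3.27 and 3.53 FPKM, and was at 0.19, 0.26 and 0.32 at 3 d and then 0.34, 0.32 and 0.38 at 9 d. ITGB6, the integrin beta chain that pairs with alpha V and activates latent TGF-beta, was at 7.53, 6.1 and 4.05 FPKM at 0 d, 0.29, 0.3 and 0.43 at 3 d and then 0.87, 0.74 and 0.85 at 6 d. ADAMTS16, a secreted metalloprotease, was at 9.84, 9.82 and 9.58 FPKM at 0 d, 1.52, 1 and 1.63 at 3 d and then 1.13, 1.23 and 1.5 at 9 d. Of these, only ITGB6 was called between induced days, higher for 6 d vs. 3 d (log2 change 1.08, SE 0.21, adjusted p = 0.0016, limma), and that call ended without 3 d replicate 1, where the log2 change was 1.00. That change was 0.44 with a pseudocount of 1, and with rescaled libraries ITGB6 was also called higher for 9 d vs. 3 d at 1.02, from 0.91. ISLR, a leucine-rich repeat protein of mesenchymal stromal cells, was at 7.11, 6.43 and 7.77 FPKM at 0 d, 0.1, 0.11 and 0.07 at 3 d, 0.1, 0.02 and 0.08 at 6 d and then 0.81, 0.62 and 0.69 at 9 d. Every 9 d library lay above every 3 d and 6 d library, and ISLR rose for 9 d vs. 6 d (log2 change 2.30, SE 0.19, adjusted p = 2.7e-05, limma). Its 6 d values lie at or below the pseudocount, and the log2 change was 0.68 with a pseudocount of 1 and 3.42 with 0.01. FAM180A was at 9.57, 10.3 and 10.1 FPKM at 0 d, 0.05, 0.05 and 0.02 at 3 d, 0.88, 1.03 and 0.96 at 6 d and then 0.69, 0.74 and 0.82 at 9 d. Its 3 d libraries were the lowest, and it rose for 6 d vs. 3 d (log2 change 2.92, SE 0.12, adjusted p = 2.5e-08, limma). Because these 3 d values lie below the pseudocount, the log2 change was 0.91 with a pseudocount of 1 and 4.34 with 0.01.

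**Figure D4:**
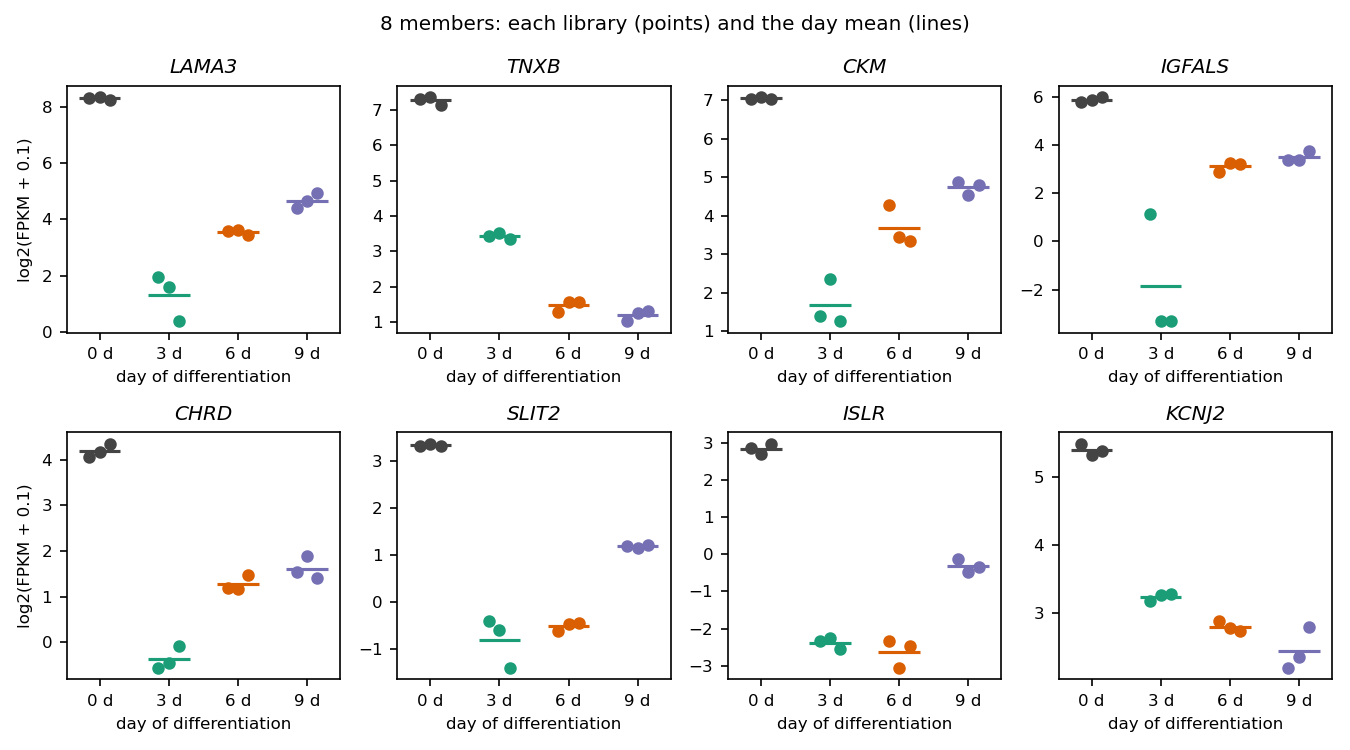
Log2(FPKM + 0.1) of 8 members against day of differentiation, with each library as a point and the mean of the 3 log2 values as a line. LAMA3, CKM, IGFALS and CHRD are lowest at 3 d, SLIT2 and ISLR are higher at 9 d than at 3 d and 6 d, and TNXB and KCNJ2 are highest at 3 d among the induced days.

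Among 82 other tested genes of the extracellular matrix, 29 were lower and 17 higher for 3 d vs. 0 d, 17 lower and 19 higher for 6 d vs. 0 d, and 15 lower and 11 higher for 9 d vs. 0 d. The median log2 change of that list was -0.38, -0.17 and 0.16. With rescaled libraries the balance for 9 d vs. 0 d turned to 9 lower and 16 higher, and with a pseudocount of 1 the 17 lower for 6 d vs. 0 d became 11. Among 49 other matrix proteases and inhibitors, 14 were lower and 14 higher for 3 d vs. 0 d, 10 lower and 9 higher for 6 d vs. 0 d, and 9 lower and 10 higher for 9 d vs. 0 d. Their median log2 change was 0.08, -0.10 and 0.02, beside -0.06, -0.15 and -0.19 over all tested mRNAs. Because LAMA3 and ITGB6 are also epithelial genes, an epithelial and mesothelial marker list was read. Of its 38 genes, 9 had a mean of at least 1 FPKM at 0 d, and 13, with the defining EPCAM, KRT8 and KRT18 among them, were at 0 in every 0 d library. Its summed level was 178, 165 and 179.9 FPKM at 0 d, 33.5, 31.6 and 33.2 at 3 d, 136, 162 and 136 at 6 d and then 175, 168 and 151 at 9 d, and its most abundant gene at 0 d was PERP, a desmosome protein, with 79.7 FPKM. Of 14 tested genes of this list, 8 were lower and 1 higher for 3 d vs. 0 d, 7 lower and 1 higher for 6 d vs. 0 d, and 4 lower and 1 higher for 9 d vs. 0 d. The part of epithelial cells in the levels of LAMA3 and ITGB6 was not tested.

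Secreted signals included both a BMP and a BMP antagonist. CHRD, chordin, which binds BMPs and keeps them from their receptors, was at 16.6, 17.9 and 20.3 FPKM at 0 d, 0.58, 0.63 and 0.85 at 3 d, 2.17, 2.14 and 2.7 at 6 d and then 2.81, 3.62 and 2.55 at 9 d. BMP6, a BMP ligand, was at 15.3, 16 and 14.9 FPKM at 0 d, 2.05, 2.09 and 2.25 at 3 d, 2.9, 2.34 and 3.02 at 6 d and then 2.49, 1.61 and 3.27 at 9 d. CHRD rose for 6 d vs. 3 d (log2 change 1.64, SE 0.17, adjusted p = 2.4e-05) in the limma fit, with every 6 d library above every 3 d library, and the change was 0.98 with a pseudocount of 1. BMP6 was not called between induced days, although every 6 d library lay above every 3 d library, and its 9 d libraries spanned both. SLIT2, a secreted guidance cue for ROBO receptors, was at 9.84, 10.2 and 9.89 FPKM at 0 d, 0.66, 0.56 and 0.28 at 3 d, 0.55, 0.62 and 0.64 at 6 d and then 2.19, 2.11 and 2.21 at 9 d. Its 3 d and 6 d libraries overlapped, the 9 d libraries lay above both, and SLIT2 rose for 9 d vs. 6 d (log2 change 1.69, SE 0.21, adjusted p = 3.6e-04, limma), a change of 0.98 with a pseudocount of 1. Of 80 other tested genes of axon guidance and cell adhesion, the list of SLIT2 and ITGB6, 35 were lower and 16 higher for 3 d vs. 0 d, 33 lower and 9 higher for 6 d vs. 0 d, and 24 lower and 10 higher for 9 d vs. 0 d. The median log2 change of these 80 genes was -0.81, -0.68 and -0.51, beside -0.06, -0.15 and -0.19 over all tested mRNAs. With a pseudocount of 1, 5 of them were higher for 6 d vs. 0 d and 13 lower for 9 d vs. 0 d. IGFALS, the acid-labile subunit that holds IGFs in a ternary complex, was at 55.6, 58.9 and 63.2 FPKM at 0 d, 2.11, 0 and 0 at 3 d, 7.34, 9.48 and 9.08 at 6 d and then 10.4, 10.2 and 13.5 at 9 d. Because 2 of its 3 d libraries were listed at 0, its change for 9 d vs. 3 d (log2 change 5.34, SE 0.96, adjusted p = 0.001, limma) depends on the pseudocount, being 3.07 with a pseudocount of 1 and 7.57 with 0.01. Among 17 genes that every cell uses, 0 were listed at 0 in any library.

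Of the other TGF-beta and BMP genes, without the 2 members, 33 were tested, and 4 were higher and 11 lower for 3 d vs. 0 d (limma). For 6 d vs. 0 d, 5 were higher and 8 lower. For 9 d vs. 0 d, 3 were higher and 6 lower. With a pseudocount of 1, 6 were lower for 3 d vs. 0 d, and 3 were higher and 4 lower for 6 d vs. 0 d. The median log2 change of these 33 was -0.42, -0.04 and -0.32, beside -0.06, -0.15 and -0.19 over all tested mRNAs. The genes of this list with the highest 0 d level were LTBP2, a matrix protein of the latent TGF-beta binding protein family that itself does not bind latent TGF-beta, and CHRDL1, a chordin-like antagonist. LTBP2 was at 3827, 3836 and 3769 FPKM at 0 d and then 2186, 1494 and 2228 at 9 d. CHRDL1 was at 962, 989 and 1269 FPKM at 0 d and then 1692, 1722 and 1881 at 9 d. Rescaling the libraries moved the balance of all calls for 9 d vs. 0 d from 525 higher and 1150 lower to 686 higher and 781 lower. For 6 d vs. 0 d it moved from 522 higher and 1227 lower to 647 higher and 938 lower.

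Channels and their partners formed another group. KCNJ2, the inward rectifier potassium channel of muscle and other excitable cells, was at 44.7, 39.9 and 41.4 FPKM at 0 d, 9, 9.5 and 9.61 at 3 d, 7.29, 6.78 and 6.61 at 6 d and then 4.49, 5.01 and 6.88 at 9 d. The 3 d libraries lay above all 6 d and 9 d libraries, but the change for 9 d vs. 3 d stayed under the size needed for a call (log2 change -0.79, SE 0.13, adjusted p = 7.0e-04, limma). KCNMA1, the pore of the large-conductance calcium-activated potassium channel, was at 5.39, 5.49 and 5.42 FPKM at 0 d, 1.16, 1.11 and 1.15 at 3 d and then 0.83, 0.81 and 0.75 at 9 d. LRRC55, an accessory subunit of that same channel, was at 10.8, 12.1 and 11.7 FPKM at 0 d, 0.32, 0.33 and 0.21 at 3 d, 0, 0.2 and 0.28 at 6 d and then 1.16, 1.54 and 1.78 at 9 d. LRRC55 rose for 9 d vs. 6 d (log2 change 2.80, SE 0.41, adjusted p = 0.0011, limma), while KCNMA1 was not called between induced days. With a 6 d library of LRRC55 listed at 0, that log2 change was 1.10 with a pseudocount of 1, 4.13 with 0.01 and 2.22 without 6 d replicate 1. Its call for 9 d vs. 3 d (log2 change 2.04, SE 0.41, adjusted p = 0.0022, limma) ended with a pseudocount of 1, at a log2 change of 0.95, and also with 0.01, at 2.35 and an adjusted p of 0.079. KCNE5, an accessory subunit of voltage-gated potassium channels, was at 20.04, 22.8 and 25.6 FPKM at 0 d, 0.31, 0.74 and 0.68 at 3 d, 3.41, 2.13 and 2.65 at 6 d and then 0.86, 0.59 and 1.8 at 9 d. It was highest at 6 d among the induced days and rose for 6 d vs. 3 d (log2 change 2.11, SE 0.38, adjusted p = 0.0011, limma), by 1.24 on the log2 scale with a pseudocount of 1. Its fall for 9 d vs. 6 d (log2 change -1.37, SE 0.38, adjusted p = 0.029, limma) ended without 6 d replicate 1 or 3 and without 9 d replicate 1 or 2, with log2 changes between -1.37 and -1.04, and was -0.87 with a pseudocount of 1. ITPR3, a calcium release channel of the endoplasmic reticulum, was at 7.35, 8.75 and 7.72 FPKM at 0 d and then 0.8, 0.72 and 1.25 at 9 d. It was not called between induced days. Among 51 other tested ion channel genes, 23 were lower and 8 higher for 3 d vs. 0 d, 15 lower and 6 higher for 6 d vs. 0 d, and 12 lower and 5 higher for 9 d vs. 0 d, with median log2 changes of -0.82, -0.44 and -0.41. These channel counts became 10 lower and 7 higher, 4 lower and 7 higher, and 3 lower and 3 higher with a pseudocount of 1, so the balance for 6 d vs. 0 d turned.

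NTRK2, the receptor of brain-derived neurotrophic factor, was at 42.95, 41.6 and 34.2 FPKM at 0 d, 3.06, 5.93 and 2.86 at 3 d and then 5.66, 7.92 and 6.31 at 9 d. ADGRG1, an adhesion G protein-coupled receptor, was at 39.6, 37.4 and 29.1 FPKM at 0 d, 1.78, 1.54 and 1.48 at 3 d, 0.64, 1.93 and 0.36 at 6 d and then 0.37, 3.34 and 1.65 at 9 d. The 9 d libraries of ADGRG1 spread more widely than the 3 d libraries, and neither receptor was called between induced days. PROM1, prominin, was at 6.73, 6.11 and 6.71 FPKM at 0 d, 0.31, 0.4 and 0.51 at 3 d and then 0.93, 0.89 and 0.83 at 6 d. Its change for 6 d vs. 3 d was just under the size needed for a call (log2 change 0.97, SE 0.21, adjusted p = 0.0029, limma), and with rescaled libraries it was called higher at 1.05. Among 51 other tested growth factor and receptor genes, 23 were lower and 8 higher for 3 d vs. 0 d, 14 lower and 6 higher for 6 d vs. 0 d, and 9 lower and 12 higher for 9 d vs. 0 d. Over all tested mRNAs, 15.2%, 7.97% and 7.47% were lower and 8.06%, 3.39% and 3.41% higher. The median log2 change of these 51 genes was -0.62, -0.41 and -0.14, beside -0.06, -0.15 and -0.19 over all tested mRNAs. The lower calls of that list became 14, 8 and 5 with a pseudocount of 1. Of 76 other tested genes of G protein signalling, 21 were lower and 21 higher for 3 d vs. 0 d, 17 lower and 17 higher for 6 d vs. 0 d, and 12 lower and 15 higher for 9 d vs. 0 d. Their median log2 change was 0.04, -0.02 and 0.13. With a pseudocount of 1 the higher calls of this list became 13, 8 and 9, and the lower calls for 6 d vs. 0 d became 11. OCA2, a melanosomal membrane transporter, was at 29.8, 27.1 and 30.9 FPKM at 0 d, 2.65, 1.1 and 1.79 at 3 d, 2.94, 3.89 and 6.45 at 6 d and then 2.72, 1.67 and 3.7 at 9 d. It was called higher for 6 d vs. 3 d (log2 change 1.22, SE 0.37, adjusted p = 0.02, limma), a call that ended without 3 d replicate 2 or 6 d replicate 3, where the log2 changes were both 0.92.

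CKM, the muscle form of creatine kinase, was the third most abundant member and the 1 member on the skeletal muscle list. It was at 132, 136 and 130.3 FPKM at 0 d, 2.51, 5.05 and 2.28 at 3 d, 19.2, 10.9 and 10.1 at 6 d and then 29.1, 23.2 and 27.7 at 9 d. The days did not overlap, and CKM rose for 6 d vs. 3 d (log2 change 2.02, SE 0.30, adjusted p = 3.2e-04) and for 9 d vs. 3 d (log2 change 3.07, SE 0.30, adjusted p = 1.6e-05) in the limma fit. Its call for 9 d vs. 6 d (log2 change 1.05, SE 0.30, adjusted p = 0.035) ended when any 1 of 6 libraries was left out. These were 0 d replicate 1, 6 d replicates 2 and 3 and the 3 libraries of 9 d, without which the log2 change ran from 0.87 to 1.14. Among the 31 other tested skeletal muscle markers, 22 were lower and 0 higher for 3 d vs. 0 d, 26 lower and 0 higher for 6 d vs. 0 d, and 26 lower and 0 higher for 9 d vs. 0 d. Their median log2 change was -1.43, -1.80 and -1.81. Between induced days 5 of these 31 markers were higher and 6 lower for 6 d vs. 3 d (median 0.01), 5 higher and 8 lower for 9 d vs. 3 d (median -0.55) and 1 higher and 0 lower for 9 d vs. 6 d (median -0.02).

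Enzymes and trafficking proteins made up the rest, of which ASS1, SARDH and FRMPD1 were picked for mention after their values were seen. KIF1A, a kinesin that carries vesicles along axons, was at 58.3, 56.05 and 55.2 FPKM at 0 d, 5.42, 10.01 and 7.69 at 3 d and then 4.92, 3.16 and 5.23 at 9 d. UAP1L1, a relative of the enzyme that makes UDP-N-acetylglucosamine, was at 49.5, 51.01 and 56.3 FPKM at 0 d, 4.65, 6.36 and 4.51 at 3 d and then 7.16, 6.86 and 9.98 at 9 d. TM7SF2, a sterol reductase of cholesterol synthesis, was at 35.5, 36.01 and 40.5 FPKM at 0 d, 4.3, 6.66 and 3.54 at 3 d and then 5.01, 6.58 and 6.52 at 9 d. None of these was called between induced days. ASS1, the arginine-making argininosuccinate synthase, was at 5.69, 6.19 and 7.03 FPKM at 0 d, 0, 0.31 and 0 at 3 d and then 0.98, 0.78 and 1.25 at 9 d. It rose for 9 d vs. 3 d (log2 change 2.76, SE 0.52, adjusted p = 0.0014, limma), with 2 of the 3 d libraries listed at 0, and that log2 change was 0.87 with a pseudocount of 1 and 4.97 with 0.01. STX11, a syntaxin of vesicle fusion, was at 4.69, 3.54 and 3.72 FPKM at 0 d, 0.83, 0.18 and 0.15 at 3 d, 0.65, 0.74 and 0.43 at 6 d and then 0.17, 0.15 and 0.16 at 9 d. Its 9 d libraries lay below every 6 d library, but its call for 9 d vs. 6 d (log2 change -1.42, SE 0.42, adjusted p = 0.041, limma) ended when any 1 of the 9 libraries of 0, 6 and 9 d was left out, with log2 changes of -1.61 to -1.28. Over all settings the limma adjusted p (BH) of STX11 ran from 7.3e-04 to 0.12, and its log2 change was -0.47 with a pseudocount of 1. SARDH, a mitochondrial enzyme of sarcosine breakdown, was at 3.97, 4.25 and 3.72 FPKM at 0 d and then 0.58, 0.82 and 0.7 at 9 d. FRMPD1, a scaffold protein, was at 12.98, 15.3 and 13.1 FPKM at 0 d, 1.73, 1.55 and 0.93 at 6 d and then 3.08, 2.5 and 2.77 at 9 d. SARDH was not called between induced days. FRMPD1 was just under the size needed for 9 d vs. 6 d (log2 change 0.98, SE 0.19, adjusted p = 0.0055, limma), and with rescaled libraries it was called higher at 1.02.

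The members nearest the ratio threshold were IGFALS at 4.11 times and KCNJ2 at 4.15 times, and the mRNAs just outside were MYOM2 and MAMDC2. MYOM2, a muscle M-band protein, was at 112, 121 and 111 FPKM at 0 d with a ratio of 3.96. MAMDC2 was at 42.5, 45.99 and 44.7 FPKM at 0 d with a ratio of 3.95. At the level threshold MFAP4 and STX11 lay inside, with lowest 0 d values of 3.27 and 3.54 FPKM. LOC101903205 and ANKRD29 lay outside, with 2.89 and 2.78 FPKM. With rescaled libraries the rule took 16 mRNAs in place of 28, and with day means in place of single libraries it took 59.

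The same rule took 0 of 7035 lncRNA rows, of which 349 reached 3 FPKM in every 0 d library. Among mRNA rows at that level it took 28 of 8634, or 0.324%. At so low a share, 0 of 349 does not set lncRNAs apart from mRNAs. Back-spliced reads of member genes were rare, with 13 circRNAs from 7 hosts and 35 counts in all. Of these counts 26 lay at 0 d and 9 at 3, 6 and 9 d, out of 21816 and 73858 circRNA counts. Only 2 of the 13 circRNAs had the 5 counts needed for the edgeR quasi-likelihood test. The circRNA of TNXB, circRNA3251, had 0, 4 and 8 counts at 0 d and 0 counts in the 9 other libraries. The other tested one, circRNA1501 of PROM1, had 1, 3 and 0 counts at 0 d and 2 counts in the 9 other libraries, and the remaining 3 circRNAs of PROM1 had 3, 1 and 1 counts in all. Both tested circRNAs reached 5 counts only with those at 0 d, so nothing is read from their tests against it. At the BH threshold 0 member circRNAs were called for 3 d vs. 0 d, against 0.813% of 2828 tested circRNAs, 0 for 6 d vs. 0 d, against 0.53%, and 0 for 9 d vs. 0 d, against 0.566%.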

How the data were processed

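RNA of 12 preadipocyte libraries was sequenced, 3 before induction and 3 on each of days 3, 6 and 9 after it. The mRNA and lncRNA values were deposited by the authors as FPKM, without the read numbers behind each value. The circRNA values were deposited as counts of back-spliced reads. The submitters' processing notes name Bowtie 0.12.2, HISAT2 2.0 and StringTie 1.3.0. The labels and the study's methods differ on RNA selection and genome build, so neither is stated here. A further 36 per-sample columns, of normalised circRNA and of miRNA values, were not used.

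FPKM were tested as log2(FPKM + 0.1) with limma 3.58.1 (trend, all 12 libraries, mean of at least 0.1 FPKM) and circRNA counts of at least 5 with edgeR 4.0.16, DESeq2 1.42.0 being the alternative, in R 4.3.3. Both were tested on simulated data, whose outcome is not reported here, so no result rests on it. P-values were adjusted by Benjamini-Hochberg over all features tested. Tables and figures used Python 3.11.15, NumPy 2.4.6, pandas 2.3.3, SciPy 1.17.1 and Matplotlib 3.10.9. Named were the 12 members highest at 0 d, the 10 with the largest ratio, members of a list, those with the largest called change, the 2 on each side of each threshold, members with at least 10 circRNA counts, and at most 2 other genes of a list. Genes outside that rule are marked in the text, except in 2 marker lists where more than 2 genes were named. These were EPCAM, KRT8, KRT18 and PERP of the epithelial list and FABP4, ADIPOQ and FASN of the adipocyte list. The members and lists were chosen with earlier results of these data known. Alternatives covered the pseudocount, filters, scaling, thresholds, each library left out and a replicate block.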

Additional observations from a re-analysis of the deposited data

How the results depend on the processing

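The number of members was 16 with a floor of 10 FPKM, 172 with a ratio of at least 2, 4 with a ratio of at least 8, 59 with day means and 16 with rescaled libraries, and 28 to 32 with 1 library left out. With a pseudocount of 1, members called higher numbered 4 for 6 d vs. 3 d, 5 for 9 d vs. 3 d and 2 for 9 d vs. 6 d, and 0 were called lower for 9 d vs. 6 d by limma, which compresses changes of mRNAs near 1 FPKM by construction. For 9 d vs. 6 d, fitting the 9 induced libraries only gave 3 higher and 0 lower, and no filter gave 1 lower. With 1 library left out, members called higher numbered 8 to 10 for 6 d vs. 3 d, 9 to 10 for 9 d vs. 3 d and 3 to 5 for 9 d vs. 6 d, and members called lower 1 to 2, 1 to 2 and 0 to 2. The cause was not tested beyond this. The shares over all tested mRNAs under these alternatives are not given here, so these counts describe the members only. Of 27 called results, 12 were kept under every alternative run and 0 reversed. Of 144 list counts under alternatives, 18 moved by more than 1.5 times.

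With a replicate block, 3 members were higher for 9 d vs. 6 d, without LAMA3 and CKM, whose limma adjusted p (BH) became 0.059 and 0.055, and the block ended no other call on a member. The replicate numbers showed no clear pairing of the libraries. With 3 libraries per day, this does not settle whether libraries of the same number shared an animal or a batch. Deviations of the 18 same-number pairs correlated at -0.098 to 0.113, 2 of them above 0.1, and 4 of 12 libraries correlated best with their own number. Pairs of different numbers correlated at -0.189 to 0.183. A circRNA minimum of 20 counts was not run to a value, since it left no circRNA of a member.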

Other observations

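In the gene table of assembly ARS-UCD2.0, used only for gene order, all 28 members were matched, and 0 of their 56 direct neighbours were members. Of these neighbours 16 were tested, with a median log2 change of -0.32 for 9 d vs. 0 d, beside -0.19 over all tested mRNAs. By limma 2 were lower and 1 higher for 3 d vs. 0 d, against 15.2% and 8.06% of all tested mRNAs, 1 was lower for 6 d vs. 0 d, against 7.97%, and 2 were lower for 9 d vs. 0 d, against 7.47%. These counts are too small to set the neighbours apart from all tested mRNAs.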
